A study of Homo sapiens with 8 samples.

Results

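The results concern the response that 3 related small molecules, ICG-001, CWP232228 and YB-0158, had in common in HT29, an established line of human colorectal adenocarcinoma cells. The 6 libraries of treated cells, of 8 in the series, were taken as 1 treated side against the 2 libraries of the vehicle. Cells had received DMSO at 0.1%, 10 µM of ICG-001, 1.5 µM of CWP232228 or 0.3 µM of YB-0158, and each of the 4 groups had 2 libraries. Treatment lasted 48 h, except for replicate 2 of ICG-001 and replicate 2 of CWP232228, which are labelled 49 h. Messenger RNA was read from total RNA by sequencing. A gene was counted as shared when each of the 6 treated libraries lay on the same side of both DMSO libraries and when the gene was also called in that direction with each compound. The 3 comparisons use the same 2 DMSO libraries, so a DMSO library that stands apart enters all of them, and the number of shared genes carries no p-value. Because the doses differ, the compounds' values stand side by side and none of the 3 pairs of compounds was compared. The labels do not say whether replicates were separate cultures, so the p-values rest on a spread between libraries that may be technical. In bulk RNA, fewer cells of a kind and less RNA per cell cannot be told apart.

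The series describes the compounds as reverse-turn peptidomimetics, small molecules shaped to mimic a bend in a protein chain. ICG-001 was first known as a ligand of CREBBP, a coactivator used by beta-catenin in Wnt signalling, and later work named the RNA-binding protein KHDRBS1 as a target of such compounds. The integrated stress response is the other pathway the results turn on. In it, kinases that sense amino acid shortage, unfolded protein, viral RNA or heme shortage phosphorylate the initiation factor eIF2alpha, which lowers translation in general and raises translation of the transcription factor ATF4. ATF4 then pairs with C/EBP proteins on a composite DNA element and raises genes for amino acid import, amino acid synthesis and tRNA charging.

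Libraries held 29071547 to 58489118 estimated reads, and the limit that 0 counts allow, taken as 3 counts, lay at 0.0513 to 0.103 CPM, the unit of level used below, in which reads are scaled to a common library size. Of 12 colorectal epithelial markers 11 were at 1 CPM or more in every library, and the 12 summed to 15841 to 17643 CPM in DMSO and 11957 to 14029 CPM in treated libraries. Fibroblast markers summed to 4.44 to 6.29 CPM and endothelial markers to 1.38 to 3.01 CPM over all libraries. Of 10 leukocyte markers, LYZ, CD14, CD68 and ITGAM were at 1 CPM or more in every library. LYZ averaged 2636 CPM, and CD14 stood at 2.61 and 4.24 CPM in DMSO and 2.29 to 3.38 in treated libraries, CD68 at 6.99 and 9.16 and 3.30 to 5.86, and ITGAM at 4.21 and 2.58 and 1.01 to 2.51. None of these 4 was shared. PTPRC, CD3E, MS4A1 and NKG7 had at most 3 counts in any library. The replicates of DMSO differed more from each other than those of each compound did, with an SD of the log2 difference between replicates of 0.34 over 11010 genes against 0.18, 0.18 and 0.19 for ICG-001, CWP232228 and YB-0158. One spread per gene served all groups, so p-values against DMSO may be too small.

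The shared response was broad and took in genes of amino acid supply, the mitochondrial genome, sterol synthesis, glycolysis and the ribosome. With the mean of the 3 compounds set against DMSO, 4442 of 16449 tested genes were higher (27%) and 4399 were lower (26.7%) at an adjusted p under 0.05 in edgeR's quasi-likelihood test. All 6 treated libraries lay above both DMSO libraries for 4477 genes (27.2%) and below both for 4389 (26.7%). Against DMSO, 8025 genes were called with ICG-001 (48.8%), with 4075 higher (24.8%) and 3950 lower (24%). With CWP232228 it was 7042 (42.8%), with 3555 higher (21.6%) and 3487 lower (21.2%). With YB-0158 it was 7209 (43.8%), with 3575 higher (21.7%) and 3634 lower (22.1%). By the rule above, 2416 genes were shared and higher (14.7%) and 2553 were shared and lower (15.5%). Of the 8841 genes called for the treated side, 2991 others kept the libraries apart but missed the call with at least 1 compound, and in 881 the treated and DMSO libraries overlapped.

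The size of the shared changes was mostly small. Median log2 fold changes of the shared genes that rose were 0.75, 0.65 and 0.70 with ICG-001, CWP232228 and YB-0158, and those of the shared genes that fell were -0.64, -0.55 and -0.59. At least 1 on the log2 scale with each compound was reached by 424 higher and 213 lower genes. Many of these stood at low levels, with a median log2 CPM of 1.57 and 0.74 against 4.16 over all genes tested. After a correction for GC content and length there were 324 and 67, counts added after seeing the data. In the authors' deposited tables, 2316 of the 2414 shared higher genes listed there and 2504 of the 2549 shared lower ones have that same sign with all 3 compounds. The adjusted p in the authors' deposited tables is under 0.05 with all 3 for 1339 of the 2375 higher and 1560 of the 2520 lower genes that have one.

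The count of shared genes rested on few libraries. It was 1088 higher and 1359 lower without replicate 2 of CWP232228, 1442 and 1760 without replicate 1 of CWP232228, 1554 and 1827 without replicate 1 of YB-0158, and 1451 and 1599 without replicate 2 of YB-0158. Without replicate 1 of DMSO it was 3690 higher and 3196 lower. With both libraries labelled 49 h left out, which leaves ICG-001 and CWP232228 with 1 library each, 124 higher and 52 lower genes were called shared.

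The rule for shared genes places all treated libraries of each on 1 side of both DMSO libraries. Where this is said of a shared gene below, it restates the rule. Shared genes with a mean log2 CPM of at least 2 were ranked by the smallest of their 3 changes, which leaves out genes at lower levels whatever their change. First among those that rose was SLC6A9, a glycine transporter. It stood at 1.50 and 1.73 CPM with DMSO, 49.1 and 45.9 with ICG-001, 19.9 and 16.7 with CWP232228 and 46.2 and 45.1 with YB-0158, replicates 1 and 2 in turn. The lowest treated library was thus far above the higher DMSO library (log2 fold change 4.40, SE 0.13, edgeR adjusted p = 1.4e-06). ULBP1, a surface ligand that natural killer cells recognise through NKG2D, stood at 1.77 and 0.919 CPM with DMSO, 26.9 and 28.0 with ICG-001, 15.9 and 12.7 with CWP232228 and 24.8 and 25.3 with YB-0158. All treated libraries again lay above both controls (log2 fold change 3.99, SE 0.21, edgeR adjusted p = 1.2e-05), with log2 fold changes of 4.35, 3.40 and 4.21 for ICG-001, CWP232228 and YB-0158. The netrin receptor UNC5B went from 0.626 and 0.919 CPM in DMSO to 7.01 to 33.0 CPM (log2 fold change 4.55, SE 0.15, edgeR adjusted p = 1.4e-06), and the chloride channel BEST1 from 0.869 and 0.636 to 6.82 to 16.2 CPM (log2 fold change 4.03).

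Further down the same ranking came CEACAM6, an adhesion molecule of the gut surface, at 11.2 and 9.97 CPM in DMSO and 56.3 to 121 CPM in treated libraries (log2 fold change 3.13, SE 0.11, edgeR adjusted p = 1.4e-06). Its relative CEACAM5 is similar in sequence, so reads can be divided between them with error. IL20RB, a subunit of the receptors for interleukins 20 and 24, rose by 3.09 on the log2 scale, PRSS1, a trypsinogen, by 3.38, and LONRF2, a protease-like RING protein, by 2.90. PRSS1 shares sequence with PRSS2, which rose by 3.24, so the split between them is uncertain. The actin-binding protein NEBL rose by 3.34, a gene whose summed reads came to 0.37 of the authors' deposited mean. GPX8, a peroxidase of the endoplasmic reticulum, rose by 2.57, and the presynaptic scaffold PCLO rose by 2.40, a call that ended with effective transcript lengths as an offset (log2 fold change 1.35, edgeR adjusted p = 0.067).

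**Figure D1:**
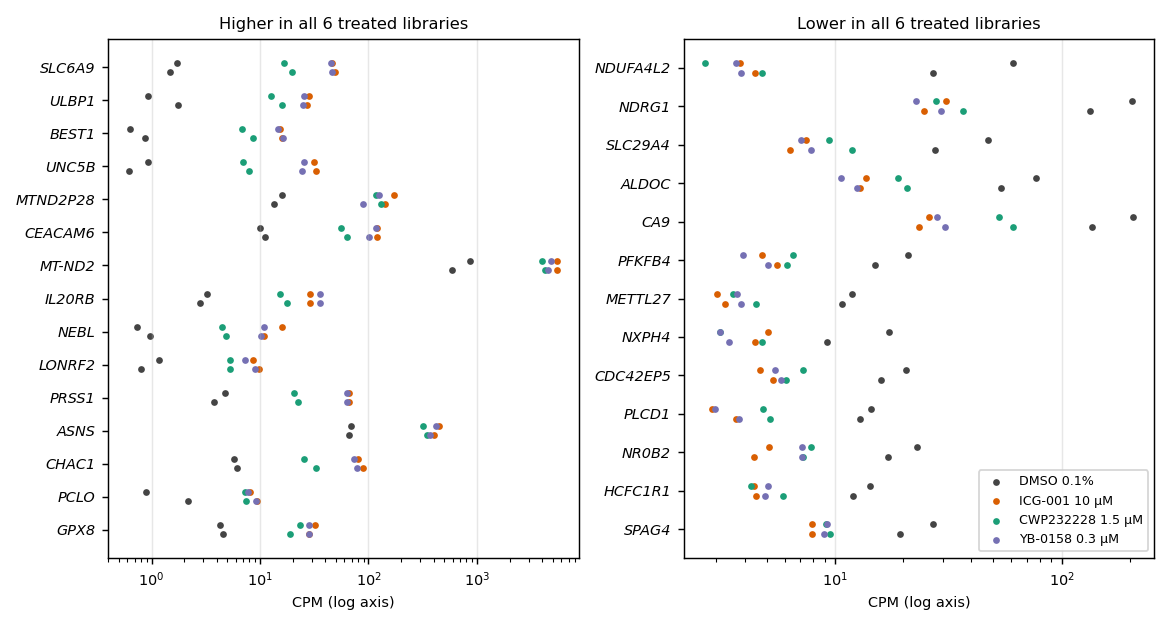
Levels in CPM (log axis) of the 15 higher genes and 13 of the 15 lower genes that ranked first by the smallest of their 3 changes, at a mean log2 CPM of at least 2, 1 point per library, with replicate 2 drawn above replicate 1. In every row the 6 coloured points lie on 1 side of both grey DMSO points, which is the rule that chose the genes.

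At the other end, NDUFA4L2, a mitochondrial protein induced by low oxygen, stood at 27.0 and 61.2 CPM with DMSO, 4.44 and 3.82 with ICG-001, 4.78 and 2.67 with CWP232228 and 3.85 and 3.66 with YB-0158. The controls stand apart from each other, and all treated libraries lie below both (log2 fold change -3.51, SE 0.31, edgeR adjusted p = 3.3e-04). Without replicate 2 of DMSO its log2 fold change was -2.82. NDRG1, a stress-responsive gene, fell from 134 and 205 CPM to 22.7 to 36.8 CPM (log2 fold change -2.57, SE 0.19, edgeR adjusted p = 1.2e-04).

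The monoamine transporter SLC29A4 and the bifunctional fructose bisphosphate enzyme PFKFB4 fell by 2.20 and 1.76 on the log2 scale. NR0B2, an orphan nuclear receptor that represses bile acid synthesis, fell from 17.1 and 23.1 to 4.41 to 7.83 CPM. PLCD1, a phospholipase C, fell by 1.84, NXPH4, a neurexophilin, by 1.75, and CDC42EP5, an effector of the GTPase CDC42, by 1.67. METTL27, HCFC1R1 and SPAG4 fell by 1.64, 1.44 and 1.40. With GC content and length corrected for, CDC42EP5, METTL27, HCFC1R1 and SPAG4 stood at -0.90, -1.02, -0.85 and -0.93, and all 4 remained shared. By the rule that chose these genes, no treated library reached the lower of the DMSO libraries.

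Counts of list members, here and below, stand against 14.7% shared and higher and 15.5% shared and lower over all genes tested. Regulators of the integrated stress response rose in 11 of 17 tested members with all 3 compounds, and 0 fell. The median log2 fold change for the treated side was 1.36, against 0.02 over all genes tested, and it stays at 1.36 with FGF21 at its lower bound. CHAC1, an enzyme that breaks down glutathione, stood at 6.08 and 5.73 CPM with DMSO, 88.5 and 79.9 with ICG-001, 32.6 and 25.4 with CWP232228 and 77.9 and 73.3 with YB-0158. Every treated library lay above both controls (log2 fold change 3.27, SE 0.13, edgeR adjusted p = 2.5e-06). FGF21, a hormone induced by ATF4, had 0 counts in both DMSO libraries and was at least 6.95-fold higher with ICG-001, 2.34-fold with CWP232228 and 4.06-fold with YB-0158, against a floor of 3 counts per library (0.104 CPM, the higher of the scaled floors of the DMSO libraries). The largest value behind these bounds was only 0.789 CPM.

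Other members are named here outside the rule for named genes, after their values were seen. DDIT3, the stress factor also called CHOP, stood at 9.42 and 13.9 CPM with DMSO, 40.8 and 38.2 with ICG-001, 17.2 and 16.1 with CWP232228 and 44.2 and 41.7 with YB-0158. The CWP232228 libraries lay nearest to the controls and still above them (log2 fold changes 1.76, 0.52 and 1.88 with ICG-001, CWP232228 and YB-0158). TRIB3, a pseudokinase that feeds back on ATF4, rose from 82.0 and 95.3 to 151 to 429.8 CPM, with log2 fold changes of 2.17, 0.90 and 2.26. ATF3 had 1.46, 0.48 and 1.60 and the chromatin-associated protein NUPR1 2.28, 1.48 and 2.36. ATF4 mRNA itself stood at 373 and 443 CPM in DMSO and 398 to 445 CPM in treated libraries, groups that overlap (log2 fold change 0.03, SE 0.07, edgeR adjusted p = 0.76). PPP1R15A, which directs a phosphatase to eIF2alpha, was called higher with ICG-001 and YB-0158 (log2 fold changes 0.60 and 0.77) and had -0.28 with CWP232228 (edgeR adjusted p = 0.059). CEBPB and ATF5 were not shared either.

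The kinases that phosphorylate eIF2alpha showed no shared call. Of 10 members of the kinase and phosphatase list, 2 were shared and higher and 1 was shared and lower, near the background of 14.7% and 15.5%. They were IMPACT, which restrains the amino acid sensing kinase (0.80 on the log2 scale), PPP1R15B, the constitutive partner of the eIF2alpha phosphatase (0.52), and the phosphatase subunit PPP1CA (-0.53). With GC content and length corrected for, the calls of PPP1R15B (0.12, edgeR adjusted p = 0.089) and PPP1CA (-0.07, edgeR adjusted p = 0.14) ended, and IMPACT (0.34) was no longer called with each compound. Phosphorylation was not measured.

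Amino acid transporters rose in 11 of 14 tested members with all 3 compounds and 0 fell, against 14.7% and 15.5% of all genes tested. The median was 1.37. SLC6A9 counts in this list and in that of the stress regulators. SLC7A11, the cystine importer that feeds glutathione synthesis, stood at 46.0 and 25.5 CPM with DMSO, 188 and 207 with ICG-001, 147 and 159 with CWP232228 and 179.6 and 194 with YB-0158. The DMSO values stand apart from each other, and all treated libraries lie above both (log2 fold change 2.32, SE 0.23, edgeR adjusted p = 3.5e-04). SLC1A4, a neutral amino acid transporter, rose from 15.5 and 19.3 to 64.8 to 113 CPM (log2 fold change 2.41, SE 0.11, edgeR adjusted p = 5.1e-06). The leucine importer SLC7A5 and its partner SLC3A2, named outside the rule, had 2.34, 1.54 and 2.26 and 1.78, 0.89 and 1.63 with the 3 compounds in the same order. SLC36A4, SLC1A1 and SLC7A8 were not shared. With GC content and length corrected for, the median was 0.93, with 11 higher and 1 lower, and SLC7A11 stood at 1.53.

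In the list of enzymes of serine, asparagine and one-carbon metabolism, 9 of 14 rose and 2 fell with all 3 compounds (median 0.98, and 1.18 after the correction). Over all genes tested the shares were 14.7% and 15.5%. ASNS, asparagine synthetase, stood at 66.4 and 68.8 CPM with DMSO, 402 and 449 with ICG-001, 344 and 321 with CWP232228 and 369 and 418 with YB-0158. Treated libraries of all compounds lay close together and above the controls (log2 fold change 2.50, SE 0.09, edgeR adjusted p = 1.4e-06). PSAT1, an aminotransferase of the serine pathway, stood at 87.6 and 75.9 CPM with DMSO, 539 and 576 with ICG-001, 323 and 328 with CWP232228 and 466 and 499 with YB-0158 (log2 fold change 2.44, SE 0.08, edgeR adjusted p = 1.4e-06). CTH, which makes cysteine from cystathionine, rose by 2.07. The 2 that fell were SHMT1, the cytosolic serine hydroxymethyltransferase (-0.97), and ALDH18A1, a proline synthesis enzyme (-0.22), while the mitochondrial MTHFD2 (1.54) and MTHFD1L (1.41) rose, 4 genes named after their values were seen.

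Cytosolic aminoacyl-tRNA synthetases, which charge tRNAs with their amino acids, rose in 13 of 20 and fell in 3, against 14.7% and 15.5% of all genes tested. Their median was 0.65, and 0.69 with 10 higher and 1 lower after the correction. IARS1, for isoleucine, stood at 249.8 and 222 CPM with DMSO, 680.0 and 706 with ICG-001, 522 and 494 with CWP232228 and 652 and 688 with YB-0158. Treated and control libraries did not overlap (log2 fold change 1.39, SE 0.07, edgeR adjusted p = 8.2e-06). EPRS1, for glutamate and proline, rose by 1.35 (SE 0.06), and GARS1, for glycine, rose by 1.65 though its summed reads came to 0.44 of the authors' deposited mean. Those that fell were QARS1 (-0.77), FARSA (-0.59) and VARS1 (-0.34), for glutamine, phenylalanine and valine, named after their values were seen. Against the same shares, inhibitors of the growth kinase mTORC1 rose in 4 of 9 and fell in 0 (median 0.25, and 0.09 with 4 higher and 1 lower after the correction). Among them were NIBAN1, from 7.44 and 5.73 to 28.7 to 74.6 CPM (log2 fold change 3.02, SE 0.11, edgeR adjusted p = 1.9e-06), DDIT4 (1.56) and the leucine sensor SESN2 (1.45).

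**Figure D2:**
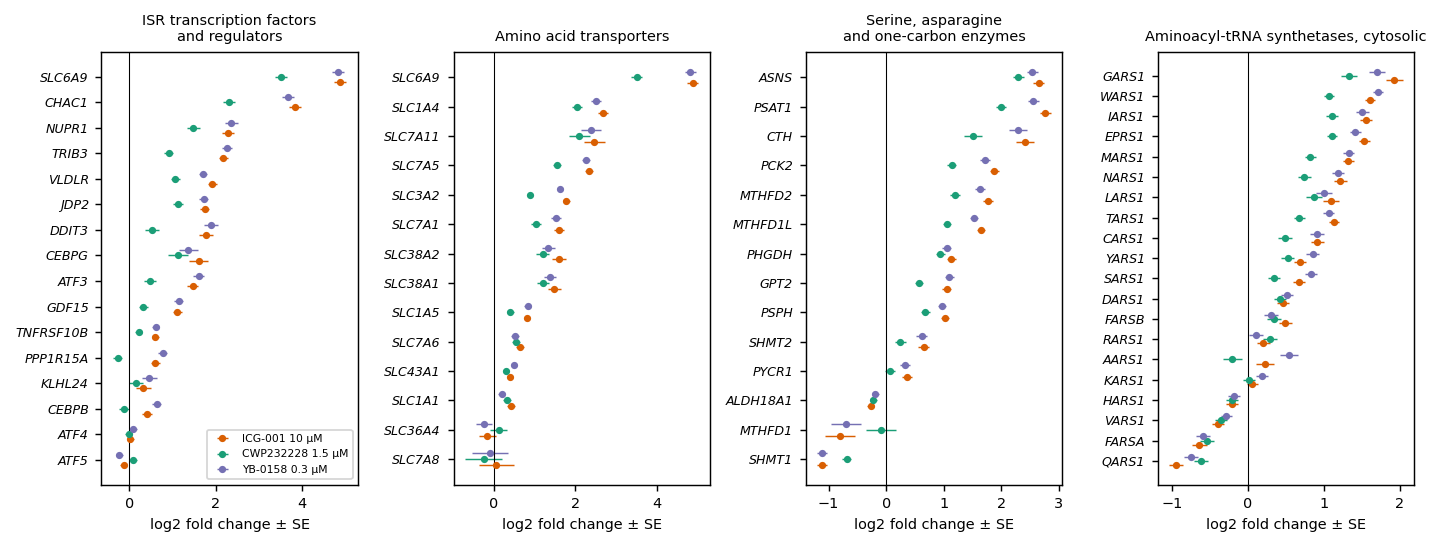
Log2 fold changes against DMSO (points, with SE as bars) for every tested member of 4 lists, with the compounds in separate colours. FGF21 is left out because it had 0 counts in both DMSO libraries. Most members lie right of 0 with each compound, and the members called shared and lower, SHMT1, ALDH18A1, QARS1, FARSA and VARS1, lie left of it. Some members that were not shared also have points left of 0.

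Promoters of genes with a large shared rise held the C/EBP-ATF element more often than promoters at large. RefSeq promoters (GRCh38.p14), from 250 bases before to 50 after the start, were given for 11351 tested genes. The core TGATGNAA, searched on both strands, was in 22 of the 241 promoters of genes that rose by at least 1 on the log2 scale with each compound (9.1%) and in 0 of the 138 of genes that fell by as much. It was in 201 of the 11351 promoters of tested genes (1.8%) and in 3.7% of all 27305 promoters of that length. Over all shared genes the shares were 3.4% of 1800 that rose and 1.2% of 2035 that fell. The stricter form TTGCATCA, whose reverse strand is a case of the core, was in 9 of the 241 (3.7%) against 0.6% of tested genes. A match describes letters in a window and shows neither binding nor a cause. The median GC content of the 241 promoters was 63% and that of all tested ones 65%.

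**Figure D3:**
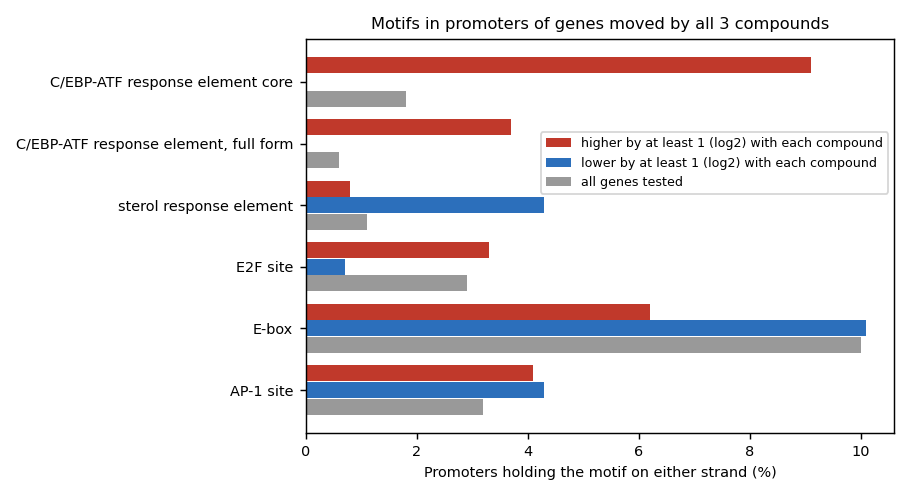
Share (%) of promoters that hold each motif on either strand, among genes higher or lower by at least 1 (log2) with each compound and among all tested genes. The C/EBP-ATF core is in 9.1% of promoters of the genes that rose and in 1.8% of all, and a missing bar stands for 0.

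The 250 bases before the start of 6 of the named genes with the core are shown because they carry this description: the amino acid enzyme, the glutathione enzyme and the tRNA synthetase of the stress response, and 3 further genes of the 15 higher ones ranked first, which are not in its list. Each runs 5′ to 3′ along the gene's strand, from RefSeq on GRCh38.p14, with the match in capitals. They lie at chr7:97872409-97872658 (minus strand), chr15:40953221-40953470 (plus), chr9:92293698-92293947 (minus), chr3:136957733-136957982 (plus), chr5:55159921-55160170 (plus) and chr7:142749222-142749471 (plus).
ASNS: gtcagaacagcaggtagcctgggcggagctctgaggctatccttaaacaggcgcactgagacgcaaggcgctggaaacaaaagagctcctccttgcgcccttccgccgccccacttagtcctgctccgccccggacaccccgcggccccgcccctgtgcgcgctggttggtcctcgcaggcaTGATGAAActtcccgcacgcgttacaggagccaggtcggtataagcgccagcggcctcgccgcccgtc
CHAC1: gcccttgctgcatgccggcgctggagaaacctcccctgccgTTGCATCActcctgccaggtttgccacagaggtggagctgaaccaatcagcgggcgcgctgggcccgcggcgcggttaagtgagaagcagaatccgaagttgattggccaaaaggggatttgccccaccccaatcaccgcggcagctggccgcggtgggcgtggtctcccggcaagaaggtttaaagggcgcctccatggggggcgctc
IARS1: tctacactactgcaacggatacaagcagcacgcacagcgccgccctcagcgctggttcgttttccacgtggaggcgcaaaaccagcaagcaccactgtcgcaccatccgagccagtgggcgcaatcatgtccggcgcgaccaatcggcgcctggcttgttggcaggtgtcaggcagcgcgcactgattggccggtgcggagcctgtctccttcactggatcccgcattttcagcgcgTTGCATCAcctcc
IL20RB: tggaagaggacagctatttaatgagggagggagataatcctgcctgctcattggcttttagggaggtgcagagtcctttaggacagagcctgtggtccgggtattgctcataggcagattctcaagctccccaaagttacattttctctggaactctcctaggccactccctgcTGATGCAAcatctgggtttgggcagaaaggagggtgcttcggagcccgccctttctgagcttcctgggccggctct
GPX8: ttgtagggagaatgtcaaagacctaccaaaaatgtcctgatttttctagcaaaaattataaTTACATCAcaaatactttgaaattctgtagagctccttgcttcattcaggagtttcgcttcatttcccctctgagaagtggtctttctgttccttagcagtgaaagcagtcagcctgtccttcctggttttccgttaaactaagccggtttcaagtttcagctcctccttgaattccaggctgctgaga
PRSS1: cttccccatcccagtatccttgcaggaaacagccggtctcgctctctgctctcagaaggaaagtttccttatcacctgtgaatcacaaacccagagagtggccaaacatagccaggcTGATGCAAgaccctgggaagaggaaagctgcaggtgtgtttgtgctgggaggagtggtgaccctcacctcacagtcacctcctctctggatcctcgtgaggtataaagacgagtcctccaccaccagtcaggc

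Counted from the start, the first base of the match lies at ASNS -68, CHAC1 -209, IARS1 -13, IL20RB -76, GPX8 -189 and PRSS1 -133. Their log2 fold changes with ICG-001, CWP232228 and YB-0158 were 2.65, 2.30 and 2.54 for ASNS, 3.83, 2.30 and 3.68 for CHAC1 and 1.56, 1.11 and 1.51 for IARS1. IL20RB had 3.26, 2.44 and 3.56, GPX8 2.78, 2.25 and 2.68 and PRSS1 3.93, 2.33 and 3.88. SLC6A9 and ULBP1, at the head of the ranking, had no match in their windows, and UNC5B and BEST1 had no promoter in the table. In all, 10 motifs were searched on both strands. The AP-1 site TGACTCA, the E-box CACGTG and the NF-Y box CCAAT were in 4.1%, 6.2% and 36.1% of the 241 promoters against 3.2%, 10% and 36.6% of tested genes. The E2F site TTTNGCGC, the cell cycle homology region TTTGAA, the hypoxia core ACGTG, which lies within the E-box, and the antioxidant core TGACNNNGC were in 3.3%, 14.5%, 19.5% and 14.9% of the 241 against 2.9%, 9.8%, 26.4% and 15.1% of tested genes. Over all 27305 promoters the AP-1 site, the E-box and the NF-Y box were in 4.9%, 7.4% and 35.7%. The E2F site, the cell cycle homology region, the hypoxia core and the antioxidant core were in 1.8%, 15.4%, 21.6% and 13.6%. The sterol element TCACNCCAC was in 6 of the 138 promoters of genes that fell by at least 1 with each compound (4.3%). Among tested genes it was in 1.1%. Over all 2035 promoters of shared genes that fell, the share was also 1.1%. The 6 included ALDOC and CA9 and no gene of the cholesterol list. That list had a median log2 fold change of -0.47 with CWP232228, so many of its members could not enter the 138. The absence of those members carries no information. The promoters of FDPS, MVD and MVK, named from that list, held no match to the sterol element.

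All 13 mRNAs encoded in the mitochondrial genome rose with every compound. Reads on that genome were 1.06% and 1.64% of a DMSO library and 3.69% to 4.69% of a treated one. MT-ND2, which encodes part of respiratory complex I, stood at 583 and 867 CPM with DMSO, 5415 and 5496 with ICG-001, 4280.0 and 3943 with CWP232228 and 4489 and 4846 with YB-0158. No treated library came near the controls (log2 fold change 2.70, SE 0.16, edgeR adjusted p = 1.9e-05). MT-ATP8, of the ATP synthase, rose by 2.50 and MT-ND1 by 2.18. MTND2P28, a nuclear pseudogene copy of MT-ND2 that shares its reads and whose level is therefore uncertain, rose by 3.11. The median of the 13 was 1.72, 1.78 with GC content and length corrected for, 1.41 without replicate 1 of DMSO and 2.11 without replicate 2 of DMSO, with 12 called shared in each of the last 2.

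Nuclear genes for the respiratory complexes went the other way. Of 40 tested, 28 were shared and lower and 0 higher (median -0.43), among them ATP5F1D, an ATP synthase subunit, from 104 and 115 to 46.7 to 56.3 CPM (log2 fold change -1.04, SE 0.07, edgeR adjusted p = 2.3e-05), the cytochrome oxidase subunit COX4I1 (-0.76) and cytochrome CYC1 (-0.74). Mitochondrial ribosomal proteins were lower in 18 of 30 and higher in 1 (median -0.57), with MRPL28 at -0.92 and MRPL12 at -0.91. The machinery that copies and transcribes mitochondrial DNA gave 3 of 16 higher and 2 lower, near the 14.7% and 15.5% over all genes, and 1 higher and 2 lower after the correction. Among these 5, POLRMT, the mitochondrial RNA polymerase, fell (-0.73), and LRPPRC (0.70), which stabilises mitochondrial mRNAs, and PNPT1 (0.65), which degrades RNA there, rose. With GC content and length corrected for, respiratory genes had a median of -0.25 with 20 lower, and mitochondrial ribosomal genes -0.34 with 16 lower. CYC1 (-0.21) and LRPPRC (0.18) were then no longer called with each compound. ATP5F1D stood at -0.33, COX4I1 at -0.43, MRPL28 at -0.35, MRPL12 at -0.30, POLRMT at -0.35 and PNPT1 at 0.24, all still shared.

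Cytosolic ribosomal protein genes were shared and lower in 42 of 54 and higher in 0 (median -0.54). RPS9 stood at 860.2 and 1074 CPM with DMSO, 415 and 394 with ICG-001, 515 and 519.6 with CWP232228 and 464 and 451 with YB-0158, with controls above every treated library (log2 fold change -1.08, SE 0.08, edgeR adjusted p = 2.6e-05). RPL28 and RPS15 fell by 1.00 and 0.94. The median after correction was -0.28 with 33 lower, so the list kept its sign at a smaller size, and RPS9, RPL28 and RPS15 stood at -0.57, -0.47 and -0.33. Factors of ribosome biogenesis and RNA polymerase I were split, with 7 of 28 higher and 6 lower beside 14.7% and 15.5% over all genes, and 4 higher and 4 lower after the correction. The initiation factor RRN3 (0.78), the polymerase subunit POLR1A (0.65) and UTP20 (0.67) rose. With effective transcript lengths as an offset POLR1A stood at -0.08, and after the GC content and length correction UTP20 stood at 0.03, both no longer called. That correction left RRN3 at 0.41 and shared, and POLR1A at 0.19 and not shared.

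GC content moved with the whole response. Shared genes that rose had a median GC content of 43.6% in their main transcript and a median length of 4233 bases, those that fell had 58.6% and 1828 bases, and all genes tested had 49.8% and 2481 bases. With the genes in 5 equal bins of GC content, 27.8% of the lowest bin were shared and higher and 1% lower, and of the highest bin 2.6% were higher and 38.2% lower. The difference between replicates followed GC content too (Spearman rho of 0.59 for DMSO against -0.71, -0.54 and -0.52 for ICG-001, CWP232228 and YB-0158, across genes, which are not independent replicates). Correction of each library for GC content and length left 1788 shared higher and 1883 shared lower genes, of which 1099 and 1076 were among the original ones, while 8 genes went from higher to lower and 2 the other way. The trend removed was taken from each library's deviation from the gene's mean over all libraries. It therefore also removes any response that follows GC content or length, and whether the trend was technical was not tested. Of the 134 named genes with a shared call, 63 had a log2 fold change smaller by over 1.5 times after the correction and 0 a larger one by as much. Of the 134, 107 still had the shared call after the correction.

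**Figure D4:**
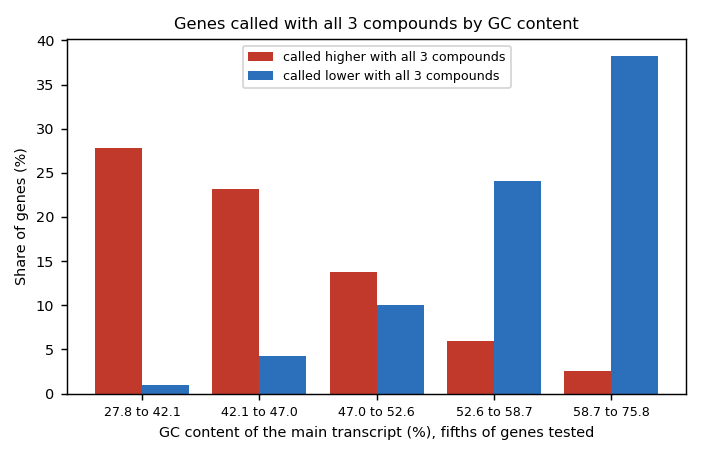
Share (%) of tested genes called shared and higher or shared and lower in each of 5 equal bins of GC content (x axis, % of the main transcript). The share that rose falls from 27.8% to 2.6% and the share that fell climbs from 1% to 38.2%.

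Genes of cholesterol synthesis and uptake were shared and lower in 18 of 26 and higher in 0 (median -0.77, and -0.70 with 22 lower after the correction). For this list and the next, 15.5% of all genes tested were shared and lower and 14.7% shared and higher. FDPS, which makes farnesyl diphosphate, stood at 215 and 253 CPM with DMSO, 86.9 and 85.0 with ICG-001, 121 and 125 with CWP232228 and 91.5 and 92.3 with YB-0158. The CWP232228 libraries lay between the controls and the other treated ones (log2 fold change -1.24, SE 0.07, edgeR adjusted p = 9.7e-06). The mevalonate enzymes MVK and MVD fell by 1.33 and 1.15, the latter -0.61 after the correction. HMGCS1, an early enzyme of the pathway named after its values were seen, was not shared, with log2 fold changes of -0.56, 0.11 and -0.45 for ICG-001, CWP232228 and YB-0158. In fatty acid synthesis 5 of 14 fell and 1 rose, and 8 fell and 0 rose after the correction. SREBF1, the transcription factor of lipid synthesis, fell by 0.89 (-0.57 after the correction), fatty acid synthase FASN by 0.78 and the acetyl-CoA enzyme ACSS2 by 1.01, a call that ended for ACSS2 with effective transcript lengths as an offset (log2 fold change -0.55, edgeR adjusted p = 0.24).

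Glycolytic genes were shared and lower in 19 of 24 and higher in 2, against 15.5% and 14.7% of all genes tested. Their median was -0.58, and -0.45 with 16 lower and 0 higher after the correction. The aldolase ALDOC stood at 53.8 and 77.4 CPM with DMSO, 12.9 and 13.7 with ICG-001, 20.8 and 19.0 with CWP232228 and 12.5 and 10.7 with YB-0158. Controls stood above all treated libraries (log2 fold change -2.17, SE 0.13, edgeR adjusted p = 1.6e-05). The lactate exporter SLC16A3 fell by 1.09 (-0.60 after the correction). The 2 that rose were SLC16A1, another lactate transporter (0.47), and hexokinase HK2 (0.52). Of 14 hypoxia-responsive genes 7 were shared and lower and 2 shared and higher (median -0.57), against 15.5% and 14.7% of all genes tested. After the correction 8 were lower and 1 higher (median -0.775). Besides NDUFA4L2 and NDRG1 above, the oxygen-regulated carbonic anhydrase CA9 fell from 136 and 207 to 23.5 and 25.9 CPM with ICG-001, 61.0 and 53.2 with CWP232228 and 30.7 and 28.2 with YB-0158 (log2 fold change -2.31, SE 0.14, edgeR adjusted p = 2.9e-05). Those that rose were CA12, a second carbonic anhydrase (0.41), and VEGFA, the angiogenic growth factor, from 83.6 and 90.4 to 149.5 to 282 CPM (1.38), both named after their values were seen along with SLC16A1 and HK2.

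**Figure D5:**
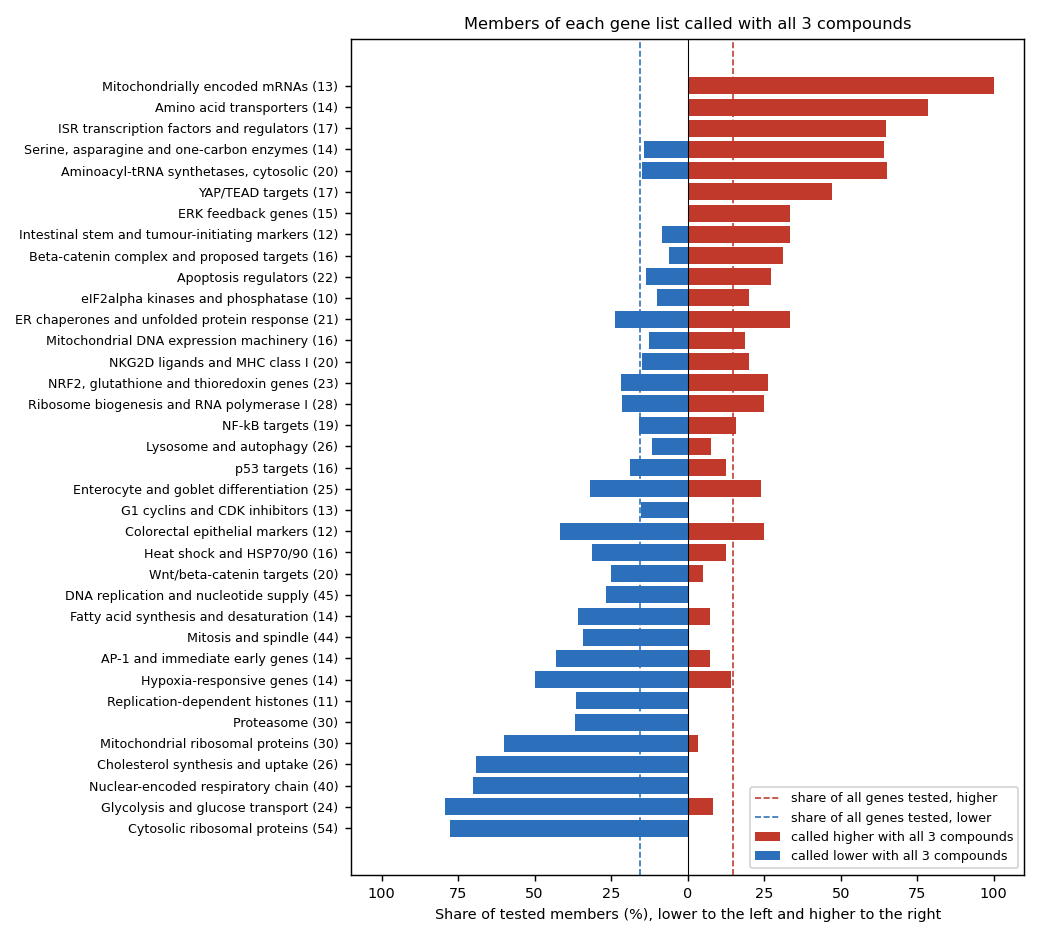
Share (%) of tested members (number in brackets) shared and higher, to the right, or shared and lower, to the left, in each list with at least 10 tested members. Dashed lines mark the 14.7% and 15.5% over all genes tested. Amino acid lists and mitochondrial mRNAs extend to the right, and ribosomal, respiratory, glycolytic and sterol lists to the left.

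Cell cycle genes were lower in part. Of 45 genes of DNA replication and nucleotide supply, 12 were shared and lower and 0 higher, and of 44 of mitosis and spindle 15 were lower and 0 higher. The shares, 12 of 45 and 15 of 44, compare with 15.5% of all genes. Thymidine kinase TK1 stood at 237 and 254 CPM with DMSO, 92.1 and 87.1 with ICG-001, 157 and 146 with CWP232228 and 90.8 and 98.4 with YB-0158. Controls lay above all treated libraries, with CWP232228 in between (log2 fold change -1.18, SE 0.06, edgeR adjusted p = 8.2e-06). The helicase subunit MCM5 and the polymerase subunit POLD1 fell by 1.09 and 0.90, the latter -0.28 and no longer shared after the correction. UBE2C, which drives cyclin degradation, fell by 0.95 and its partner CDC20 by 0.86. TK1 and CDC20 stood at -0.70 and -0.49 after the correction and remained shared. Median log2 fold changes with ICG-001, CWP232228 and YB-0158 were -0.51, -0.01 and -0.68 for replication and -0.72, -0.08 and -0.69 for mitosis. Replication-dependent histones, many of which lack the poly(A) tail, were lower in 4 of 11, with H1-2 at -1.08 (-0.62 after the correction).

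Among the proteins proposed as targets, KHDRBS1 mRNA stood at 246 and 216 CPM in DMSO and 206 to 246 CPM in treated libraries, groups that overlap (log2 fold change -0.04, SE 0.07, edgeR adjusted p = 0.69). It was called lower after the GC content and length correction (-0.14, edgeR adjusted p = 0.037). CREBBP stood at 75.9 and 62.0 CPM with DMSO, 116 and 105 with ICG-001, 97.9 and 90.8 with CWP232228 and 129 and 118 with YB-0158, with all treated libraries above both controls (log2 fold change 0.66, SE 0.09, edgeR adjusted p = 6.0e-04). EP300, its paralog, stood at 64.6 and 30.7 CPM in DMSO and 69.6 to 79.1 CPM in treated libraries. All treated libraries lie above both controls, which stand far apart (log2 fold change 0.66, SE 0.26, edgeR adjusted p = 0.079), and the value turned on the DMSO library used. Without replicate 1 of DMSO it was 1.31 and called, and without replicate 2 of DMSO 0.21 (edgeR adjusted p = 0.063). After the correction it was 0.35 (edgeR adjusted p = 0.26). The summed reads of EP300 came to 0.70 of the authors' deposited mean. In the authors' deposited tables it is higher with ICG-001, CWP232228 and YB-0158. The log2 fold changes there are 0.54, 0.89 and 0.86 (the authors' DESeq2 adjusted p = 0.016, 1.2e-04 and 1.5e-04). Beta-catenin CTNNB1 stood at 229 and 209.5 and 242 to 261 CPM (log2 fold change 0.19, SE 0.06, edgeR adjusted p = 0.021), and was not called with each compound. Its call for the treated side ended without replicate 2 of DMSO (edgeR adjusted p = 0.12), without replicate 2 of ICG-001, without either library of YB-0158 and after the correction (0.02). APC and GSK3B, of the complex that degrades beta-catenin, rose by 0.84 and 0.75, and stood at 0.08 and 0.17 after the correction, where neither was shared.

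Wnt/beta-catenin target genes gave 1 of 20 shared and higher and 5 shared and lower (median -0.11), against 14.7% and 15.5% of all genes, and 3 higher and 4 lower after the correction. AXIN2, a feedback inhibitor used as a Wnt reporter, stood at 65.2 and 57.7 CPM with DMSO, 107 and 106 with ICG-001, 91.7 and 86.5 with CWP232228 and 112 and 114 with YB-0158, above both controls in each treated library (log2 fold change 0.73, SE 0.07, edgeR adjusted p = 8.1e-05). SP5, another direct target, stood at 19.2 and 19.0 CPM with DMSO, 7.38 and 6.49 with ICG-001, 8.92 and 9.69 with CWP232228 and 8.39 and 7.50 with YB-0158 and was below both controls in each (log2 fold change -1.25, SE 0.09, edgeR adjusted p = 2.3e-05). NOTUM, an enzyme that inactivates Wnt ligands, fell from 2.12 and 2.44 to 0.418 to 0.620 CPM (-2.17), ASCL2, a stem cell transcription factor, by 0.92, and the survivin gene BIRC5 by 0.95. MYC fell from 249 and 237 to 169 to 203 CPM (log2 fold change -0.37, SE 0.07, edgeR adjusted p = 0.0031). After the correction AXIN2 was 0.71, SP5 -0.74 and NOTUM -1.67, while ASCL2 (-0.32, edgeR adjusted p = 0.066) lost its call and MYC (-0.22) was not called with each compound. The stem cell receptor LGR5 was not shared (log2 fold change -0.28, SE 0.10, edgeR adjusted p = 0.049), with -0.31, 0.05 and -0.57 for ICG-001, CWP232228 and YB-0158. Its call ended without replicate 1 of DMSO (edgeR adjusted p = 0.29), without either library of any compound, and without those labelled 49 h (edgeR adjusted p = 0.14). After the correction the treated side stood at -0.63 (edgeR adjusted p = 3.8e-04), still not called with each compound, and without replicate 2 of DMSO at -0.39 (edgeR adjusted p = 0.029).

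Differentiation genes of enterocytes and goblet cells moved both ways, with 6 of 25 higher and 8 lower, against 14.7% and 15.5% over all genes. CEACAM5 rose from 4.59 and 4.17 to 15.2 to 30.5 CPM (log2 fold change 2.47, SE 0.12, edgeR adjusted p = 5.6e-06), and the mucins MUC5AC and MUC2, named after their values were seen, rose by 2.19 and 1.74. FABP1, the fatty acid carrier of enterocytes, stood at 11.8 and 28.1 CPM with DMSO, 1.67 and 1.79 with ICG-001, 3.78 and 2.97 with CWP232228 and 0.992 and 0.461 with YB-0158. The controls stand apart from each other and above all treated libraries (log2 fold change -3.60, SE 0.34, edgeR adjusted p = 3.0e-04), and without replicate 2 of DMSO the log2 fold change was -2.86. Epithelial markers were higher in 3 of 12 and lower in 5, with the cadherin CDH17 at 1.69 and the keratin KRT19 at -0.88 (-0.36 after the correction, where 2 were higher and 3 lower). Of the fibroblast markers, 2 passed the filter on low counts. LUM, a matrix proteoglycan, rose from 0.765 and 0.707 to 2.70 to 3.79 CPM and COL1A1, a collagen chain, fell from 4.21 and 4.42 to 1.12 to 2.58 CPM.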

How the data were processed

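RNA from 8 libraries of HT29 cells was sequenced. Per the submitters' processing notes, the authors trimmed reads with fastp, quantified transcripts on GRCh38 with Salmon 1.3.0 and tested genes with DESeq2; the version of fastp and DESeq2 is not given in the sources used here. The deposited transcript files hold estimated counts, TPM and effective transcript lengths. The authors' deposited comparison tables hold mean normalized counts (a signal per gene), log2 fold changes with standard errors, p-values and FPKM. TPM and FPKM, deposited by the authors, entered no test, and the authors' log2 fold changes and adjusted p-values are counted only where named as theirs.

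Estimated counts were summed per gene and rounded. Of 228754 transcripts, 204677 (89.5%) matched GENCODE 29, giving 58193 genes; the unmatched transcripts held 1.54% to 1.85% of reads and were left out. In R 4.3.3, edgeR 4.0.16 (filterByExpr, TMM, glmQLFit with robust dispersion, glmQLFTest) was fitted to the 4 groups over 16449 genes, with 4 residual degrees of freedom, Benjamini-Hochberg adjustment over all genes and a threshold of 0.05. The treated side is the mean of the 3 compound groups minus DMSO. CPM values are TMM-scaled, with some exceptions. The sums of cell type markers, their counts at 1 CPM or more, the mean of LYZ and the floors given with the read totals use library totals alone. The procedure was tested on simulated data. Alternatives used limma 3.58.1, DESeq2 1.42.0, other offsets, filters and blocks, and libraries left out. Floors cover counting error only.

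The compounds, the 42 gene lists and the tests were chosen with earlier results of these data known. Named genes were the 15 higher and 15 lower shared genes, at a mean log2 CPM of at least 2, whose smallest change over the 3 compounds was largest, up to 3 shared members of each list, and KHDRBS1, CREBBP, EP300, CTNNB1, MYC, BIRC5, AXIN2 and LGR5. Others are marked as chosen after their values were seen. Counting was not stated to use strand, so reads of overlapping genes on opposite strands may not be told apart. Some genes that these rules name are not reported here.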

Additional observations from a re-analysis of the deposited data

How the results depend on the processing

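Of 2484 values of the treated side (138 named genes under 18 alternatives), 2439 kept their direction and side of the threshold, 35 lost and 7 gained a call, and 3 changed sign. Those 3 were SPRED1, at -0.012 after correction for GC content and length, POLR1A, at -0.080 with effective transcript lengths as an offset, and KHDRBS1. When each library was left out, KHDRBS1 had -0.14 to 0.070 and was never called (0.070 without replicate 1 of DMSO). These values do not cover the call with each compound that a shared gene needs. Of 134 named genes with a shared call, 27 lost it after the GC content and length correction. Counts of calls moved more, and the cause was not tested. The correction gave 67 shared genes lower by at least 1, a count added after seeing the data, and 4643 calls for CWP232228. The length offset gave 2889 higher genes for the treated side, 1103 shared higher, 1480 shared lower and 3400 calls for CWP232228. limma with group weights gave 2763 higher for the treated side. Without the libraries labelled 49 h there were 2705 higher for the treated side, 124 shared higher, 52 shared lower, 97 and 28 by at least 1, 3314 calls for ICG-001 and 186 for CWP232228. Leaving out each library in turn gave 3445 to 5076 higher and 3650 to 4618 lower for the treated side, 1088 to 3690 shared higher, 1359 to 3196 shared lower, 310 to 974 and 123 to 330 by at least 1, 5140 to 9412 calls for ICG-001, 2747 to 8798 for CWP232228 and 4237 to 8846 for YB-0158. A lone library was assumed to vary like the other groups. Deviations of same-numbered libraries correlated at 0.206 to 0.475 among the compounds, and those of DMSO at -0.187, -0.217 and -0.0771 with ICG-001, CWP232228 and YB-0158, so replicate numbers, which go together among treated libraries, were not taken to pair them with DMSO. With the replicate block 2138 higher and 2304 lower genes were shared, and with the DMSO numbers crossed, chosen after seeing the data, 2873 and 2844. DESeq2 gave 2174 and 2359. The split of shared calls was 57.2% higher with no low-count filter, where 30456 genes were tested. Depth limits genes such as FGF21, at 0 counts in DMSO.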

Other observations

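Stress and signalling genes outside the amino acid lists were mixed. Counts below stand against 14.7% shared and higher and 15.5% shared and lower over all genes tested, and corrected values are those after a correction for GC content and length. Of 21 genes of endoplasmic reticulum chaperones and the unfolded protein response, 7 were shared and higher and 5 shared and lower (corrected, 3 and 5). The sensor ERN1 stood at 17.8 and 12.6 CPM with DMSO, 57.3 and 55.8 with ICG-001, 30.5 and 29.5 with CWP232228 and 62.9 and 63.0 with YB-0158 (log2 fold change 1.64, SE 0.12, edgeR adjusted p = 3.1e-05), and SEL1L, of the degradation complex, rose by 1.28 (0.62 and no longer shared when corrected). The chaperone PDIA4 fell by 1.06, its summed reads being 0.39 of the authors' deposited mean, and HSPA5, the main chaperone there, was not called (named after its values were seen, log2 fold change 0.01, SE 0.06, edgeR adjusted p = 0.87). Of 16 heat shock genes, 2 rose and 5 fell, with HSPH1 at 1.21 and HSPB1 at -1.01. Corrected, 1 rose and 2 fell, and HSPB1 was -0.39. NRF2 and glutathione genes gave 6 of 23 higher and 5 lower, with SLC7A11 up and the pentose phosphate enzyme TKT (-0.78) and the peroxidase GPX2 (-0.66) down. Corrected, 6 were higher and 3 lower, with TKT at -0.41 and GPX2 at -0.31. Proteasome genes were lower in 11 of 30 and higher in 0, with PSMC3 at -0.83. Corrected, 10 were lower, PSMC3 was -0.49, and the list's median went from -0.26 to -0.15. Without replicate 1 of DMSO 18 were lower.

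AP-1 and immediate early genes were shared and lower in 6 of 14 and higher in 1. JUNB stood at 141 and 137 CPM with DMSO, 55.6 and 53.4 with ICG-001, 70.5 and 66.4 with CWP232228 and 63.1 and 58.2 with YB-0158, below both controls in each treated library (log2 fold change -1.19, SE 0.06, edgeR adjusted p = 6.5e-06), and FOS and IER2 fell by 0.83 and 0.80. Corrected, 4 were lower and 2 higher, the median went from -0.23 to -0.004, and JUNB and IER2 stood at -0.67 and -0.35. The p53 target BTG2, an inhibitor of proliferation, stood at 71.9 and 72.3 CPM with DMSO, 22.4 and 21.3 with ICG-001, 40.8 and 37.6 with CWP232228 and 23.1 and 22.7 with YB-0158 (log2 fold change -1.42, SE 0.06, edgeR adjusted p = 4.4e-06), in a list with 2 of 16 higher and 3 lower, near the share over all genes. Targets of YAP and TEAD, the effectors of Hippo signalling, were higher in 8 of 17 and lower in 0, with the membrane protein MYOF at 1.37. Corrected, 4 were higher, and 7 without replicate 2 of DMSO. Feedback genes of ERK signalling were higher in 5 of 15, with DUSP4 at 0.71 and SPRED1 at 0.66, which stood at -0.01 when corrected, where 3 were higher and 2 lower. NF-kB targets had 3 of 19 higher and 3 lower, near the share over all genes, and 3 and 0 when corrected, with BIRC3, an inhibitor of apoptosis, at 1.78. Apoptosis regulators had 6 of 22 higher and 3 lower, with the killer PMAIP1 at 1.47 and BAD at -0.86. Corrected, 4 were higher and 5 lower, and BAD stood at -0.24. Of ligands of NKG2D and MHC class I genes, 4 of 20 were higher and 3 lower, near the share over all genes, and 5 and 1 when corrected. Of 4 netrin genes 3 rose, with UNC5B first and the ligand NTN4 at 1.09.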
